A study of Arabidopsis thaliana with 4 samples.

Results

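The chloroplast keeps a small genome of its own, and its transcripts were measured here in rosette leaves of Arabidopsis that had been infested with whiteflies and in leaves that had not. All protein-coding genes of the plastid genome that had a probe set for a single gene were taken, with 1 probe set per gene, and sorted by the start of their symbol. This gave 69 genes of the 13356 genes with such a probe set in the table. They comprised 5 photosystem I genes (psa), 15 photosystem II genes (psb), 6 genes of the cytochrome b6f complex (pet), 6 of the ATP synthase (atp) and 10 of the NDH complex (ndh). The remainder were 15 genes for ribosomal proteins (rpl and rps), 4 for the plastid RNA polymerase (rpo) and 8 others. In the reference annotation 9 further plastid gene symbols have no single-gene probe set in the table and are not among them.

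The infested group was ecotype Columbia in short days of 8 h light, on which 100 adult silverleaf whiteflies (Bemisia tabaci type B, a phloem-feeding insect) were released per plant at 21 days of age. These adults were aspirated off 7 days later, and rosette tissue with nymphs on it was collected at 28 days, when plants were 7 weeks old. The uninfested group was caged Columbia of the same age and light, harvested as leaves at a matched stage of development. Each group has 2 arrays, each array a pool of 20 plants from 2 experiments of 10 plants, so that p-values measure the spread between pools and not between plants.

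A plastid has only part of the genes it needs. Its genome encodes core subunits of the photosynthetic complexes, part of its ribosome and a bacterial-type RNA polymerase, while the nucleus supplies the other subunits. Many plastid genes lie in operons and are transcribed together, then cut and processed into smaller RNAs, so that steady levels depend on transcription, processing and decay. Labelling by the one-cycle protocol starts from poly(A), and plastid messages mostly lack a stable poly(A) tail. The signals are therefore measures of the RNA that was labelled, and they do not rank different transcripts by abundance.

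The deposited signals are linear array intensities with a trimmed mean of 500 on every array and array medians between 185 and 205. Of 27 control probe sets for transcripts not in the sample, the highest read 52.1 and 41.7 on the infested arrays and 49.2 and 48.8 on the uninfested arrays. Of the 69 plastid genes 68 were bright enough to be tested, and 54 were among the brightest 10% of all probe sets. The gene left out was ndhF, an NDH subunit, at 38.5 and 47.4 on infested arrays 1 and 2, against 57.7 and 51.4 on uninfested arrays 1 and 2. Below, each pair of values is given in that order, array 1 and then array 2. Cytosolic 25S ribosomal RNA, measured by a control probe set, read 157 and 302.8 on the infested arrays, against 94.6 and 134 on the uninfested arrays. The ratio of 3′ to 5′ signal of 1 actin control was 5.7 and 6.56 on the infested arrays, against 2.7 and 3.88 on the uninfested arrays. That of the other actin control was 1.31 and 1.43 on the infested arrays, against 1.43 and 1.42 on the uninfested arrays. The ratios of 2 ubiquitin controls ran the other way, at 2.08 and 1.87 on the infested arrays, against 2.77 and 2.34 on the uninfested arrays for the first, and at 1.45 and 1.31 on the infested arrays, against 1.64 and 1.74 on the uninfested arrays for the second. Of 2 GAPDH controls the first was lower on the infested arrays, with 0.975 and 1.02, against 1.17 and 1.15 on the uninfested arrays. The second was higher on the infested arrays, with 1.14 and 1.17, against 1.09 and 0.98 on the uninfested arrays. The control transcripts thus gave no common direction, and the part of these measures in the results below was not tested.

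As a whole the plastid transcripts lay slightly lower in infested leaves, and the ribosomal protein genes lay lowest. The median log2 change of all 69 genes, infested minus uninfested, was -0.16, and single genes ranged between -1.16 and 0.71. The median over all 13648 tested probe sets was 0.04. Among the plastid genes 55 had a log2 change below 0 and 14 above it, beside 46.5% of all tested probe sets below 0; with quantile normalization in place of the deposited scaling 39 were below 0 and 16 had changed sign. Only rpl36, for a protein of the large ribosomal subunit, passed limma's test after Benjamini-Hochberg adjustment over the whole table, and it was lower. That is 1 of 68 tested genes, or 1.47%, where 2.54% of all tested probe sets were called lower. No plastid gene was called higher, where 2.83% of all probe sets were. At an unadjusted p under 0.05 there were 15 plastid genes lower, or 22.1%, and 1 higher, beside 13.6% and 14.1% of all tested probe sets.

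The sample titles give only a replicate number, while by the series text each experiment held plants of both groups. Each array pools 2 experiments, and same-numbered pools were taken to share theirs. If every pool holds the same 2 experiments, the number marks no block, and the 2 arrays of a group do not measure the spread between experiments. The test was also run with the number as a block, and every blocked call below rests on that reading of the numbers and on 2 pairs. The blocked fit called 11 plastid genes lower, or 16.2% of those tested, beside 10.3% of all probe sets. It called 1 higher, petD, beside 9.19% of all probe sets. Of the 11 lower genes 8 were for ribosomal proteins, and the other genes were psbJ, ndhH and ndhE. Both infested arrays were below both uninfested arrays for 33 of the 68 tested genes, or 48.5%, beside 28.1% of all tested probe sets. They were above both for 3 genes, beside 33.8% of all. Plastid probe sets are bright, and among the brightest 10% of probe sets, a comparison added after the values were seen, the median log2 change was -0.02. In that bright set 52.3% had a log2 change below 0, beside 79.4% of the tested plastid genes. The infested arrays were the lower ones for 39.1% of it, beside 48.5% of the plastid genes. The main test called 6.2% of it lower and the block 19%, both above the plastid genes' 1.47% and 16.2%.

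In leaf pools, fewer cells of a type and less RNA per cell cannot be told apart. The signals of the 69 plastid genes summed to 418049 and 395837 on the infested arrays, against 479093 and 433454 on the uninfested arrays. The uninfested arrays also differed from each other, with 56 of the 69 genes higher on array 1 than on array 2, where 48.3% of all tested probe sets were. The median log2 change was -0.28 between the replicate 1 arrays and -0.11 between the replicate 2 arrays. It thus kept its sign in both pairs, at unequal size. On leaving out 1 array it lay between -0.27, without uninfested array 2, and -0.07, without uninfested array 1.

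**Figure D1:**
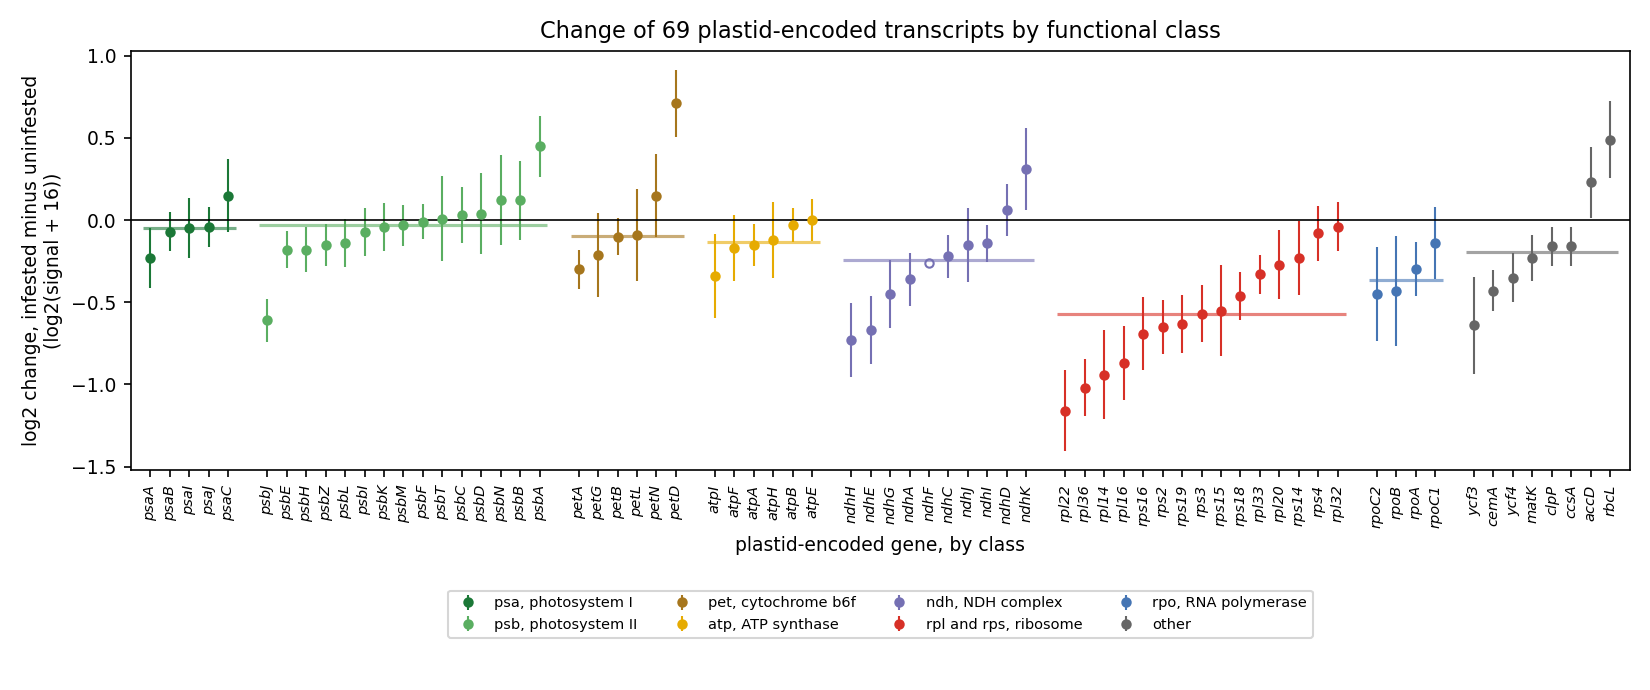
Log2 change of signal, infested minus uninfested, for each plastid gene, sorted by functional class. Points are genes with the standard error of limma's fit as bars, a line marks each class median, and the open circle is ndhF, which was too dim to test. The ribosomal protein genes have the lowest median, -0.57, and none of their 15 points lies above 0, whereas the medians of the photosystem, cytochrome and ATP synthase classes lie between -0.13 and -0.03 and are 0.00 or above with quantile normalization.

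The ribosomal protein genes were the class furthest below the uninfested leaves. All 15 had a log2 change below 0, with a median of -0.57, and the median remained -0.54 with quantile normalization, where some single genes changed sign. Both infested arrays were below both uninfested arrays for 12 of the 15 genes, or 80%, beside 28.1% of all tested probe sets and 39.1% of the brightest 10%. The blocked fit called 8 of the 15 lower, or 53.3%, beside 10.3% of all and 19% of the brightest 10%. The medians of the 2 replicate pairs were -0.58 and -0.48. The 7 genes for large subunit proteins had a median of -0.87 and the 8 genes for small subunit proteins one of -0.56. For the 54 other plastid genes the median was -0.14, with 3 called lower by the blocked fit. The difference between the classes was not tested, since genes are not replicates.

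The gene called in both fits was rpl36. Its signal was 3877 and 3144 on the infested arrays, against 7683 and 6568 on the uninfested arrays, so that both infested values were far below both uninfested ones. The means were 3511 ± 518 in infested leaves and 7126 ± 789 in uninfested leaves (SD, n = 2 each), a 2.03-fold lower level. On the log2 scale rpl36 fell by 1.02 (SE 0.174, limma adjusted p = 0.0414, with the block 0.00365). The call was lost with quantile normalization (adjusted p = 0.0551), with no filter on dim probe sets (0.0826) and without uninfested array 1 (0.295) or uninfested array 2 (0.222). Its log2 change stayed between -1.17 and -0.87 over all alternatives.

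A larger difference with a wider error belonged to rpl22, for another large subunit protein, with 4466 and 2778 on the infested arrays, against 8289 and 7552 on the uninfested arrays. The infested arrays differed more from each other than for rpl36. The log2 change was -1.16 (SE 0.245, adjusted p = 0.0556, with the block 0.00406), and it lay between -1.50 without infested array 1 and -0.82 without infested array 2. For rpl14 the signals were 1335 and 909.9 on the infested arrays, against 2546 and 1772 on the uninfested arrays, and the log2 change was -0.94 (adjusted p = 0.101 and, with the block, 0.00715). For rpl16 they were 2171 and 1672 on the infested arrays, against 4077 and 2986 on the uninfested arrays, and the log2 change was -0.87 (0.0841 and, with the block, 0.00845). In both genes array 1 was above array 2 in each group, so that the pairs gave closely similar differences of -0.92 and -0.95 for rpl14 and -0.90 and -0.83 for rpl16.

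The small subunit genes rps19 and rps3 had smaller differences of the same kind. The signal of rps19 was 3821 and 3068 on the infested arrays, against 5701 and 4973 on the uninfested arrays, with a log2 change of -0.63 (adjusted p = 0.0950 without and 0.0249 with the block). That of rps3 was 5118 and 4151 on the infested arrays, against 7443 and 6342 on the uninfested arrays, with a log2 change of -0.57 (0.108 without and 0.0326 with the block). Neither gene's groups overlapped.

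These 6 genes, rpl36, rpl14, rpl16, rps3, rpl22 and rps19, are neighbours among the measured plastid genes. They are part of the large ribosomal protein operon of the plastid genome, a relic of the bacterial ones. The run was picked out after the values were seen. Its median log2 change was -0.90. The infested arrays were lower for all 6, beside 28.1% of all tested probe sets, and the blocked fit called all 6, beside 10.3%. The 63 plastid genes outside the run had a median of -0.15, with 5 called lower by the blocked fit. The differences of the run lay between -0.98 and -0.54 in replicate pair 1 and between -1.44 and -0.61 in pair 2. The next measured gene beside rpl36 is rpoA, the alpha subunit of the RNA polymerase, with a log2 change of -0.30. On the other flank, beside rps19, lies rpl2 of the same operon, whose probe set matches both copies of that gene. Its log2 change was -0.11 (limma adjusted p = 0.562). Beyond it lies rpl23, also of that operon and with such a probe set, at -0.53 (0.0895 without and 0.0459 with the block). The run is thus not the whole operon, and the operon's genes differed in size of change.

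**Figure D2:**
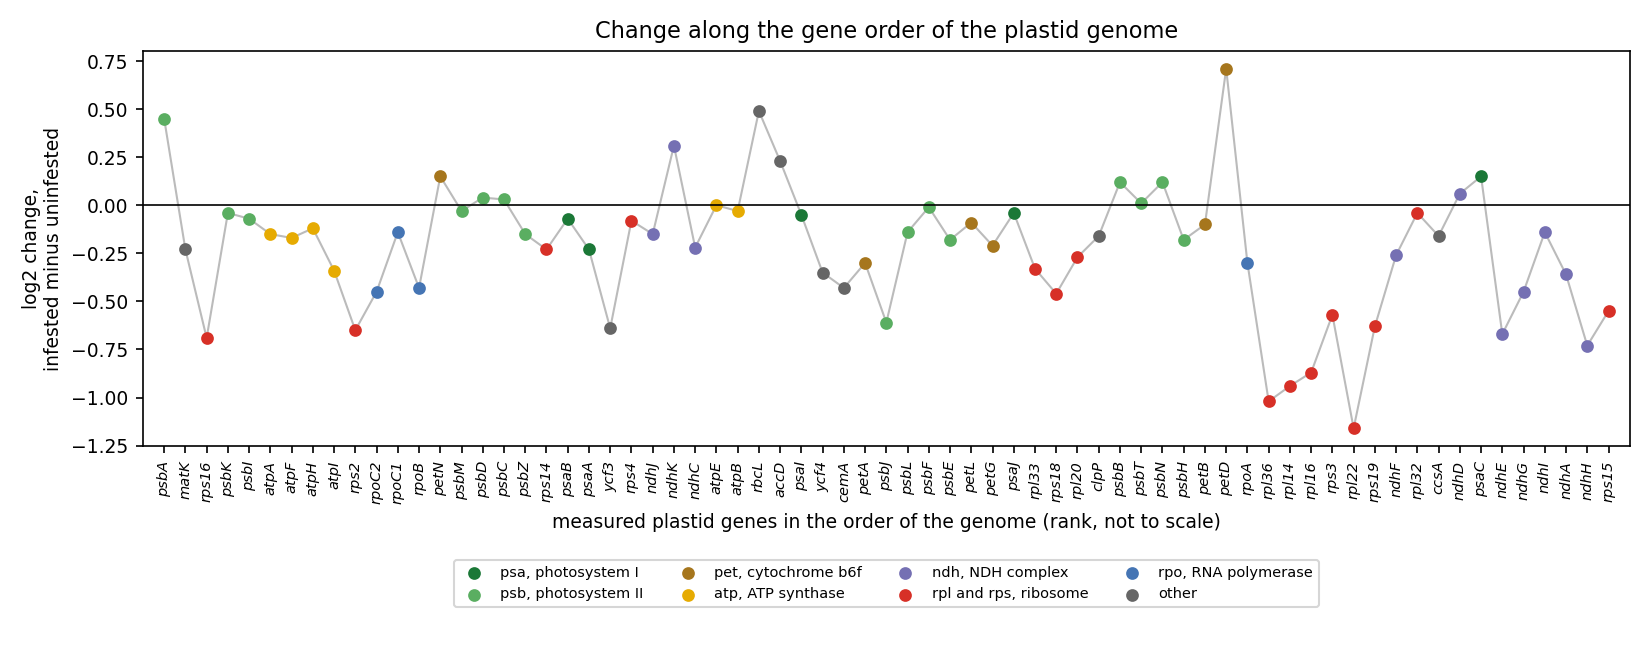
Log2 change of signal, infested minus uninfested, for the 69 plastid genes in their order along the plastid genome (rank, not distance). The run of 6 ribosomal protein genes from rpl36 to rps19 lies at -0.57 or below.

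Across the genome, genes next to each other differed by a median of 0.22 in log2 change over 68 neighbouring pairs, against 0.30 over all 2346 pairs of plastid genes. Neighbours were thus only a little closer to each other than any pair, and many of them share an operon.

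The 9 other ribosomal protein genes had a median log2 change of -0.33, and the blocked fit called 2 of them. One was rps2, which had 3764 and 3121 on the infested arrays, against 5727 and 5064 on the uninfested arrays, with a log2 change of -0.65 (adjusted p = 0.0815 without and 0.0226 with the block). The other was rps16, which had 395 and 369 on the infested arrays, against 757 and 519.5 on the uninfested arrays, with a log2 change of -0.69 (0.121 without and 0.0413 with the block). All infested values were below all uninfested ones in both genes, and for rps16 most of the spread was between the uninfested arrays. The log2 change was -0.55 for rps15, -0.46 for rps18, -0.27 for rpl20, -0.23 for rps14 and -0.08 for rps4, and none of these passed either fit. The brightest probe set of the class was that of rpl33, with 9866 and 10087 on the infested arrays, against 12486 and 12624 on the uninfested arrays, a log2 change of -0.33 (adjusted p = 0.142). The smallest difference was that of rpl32, with 3493 on both infested arrays, against 3802 and 3401 on the uninfested arrays. Its log2 change was -0.04, with a 95% interval of -0.41 to 0.33.

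**Figure D3:**
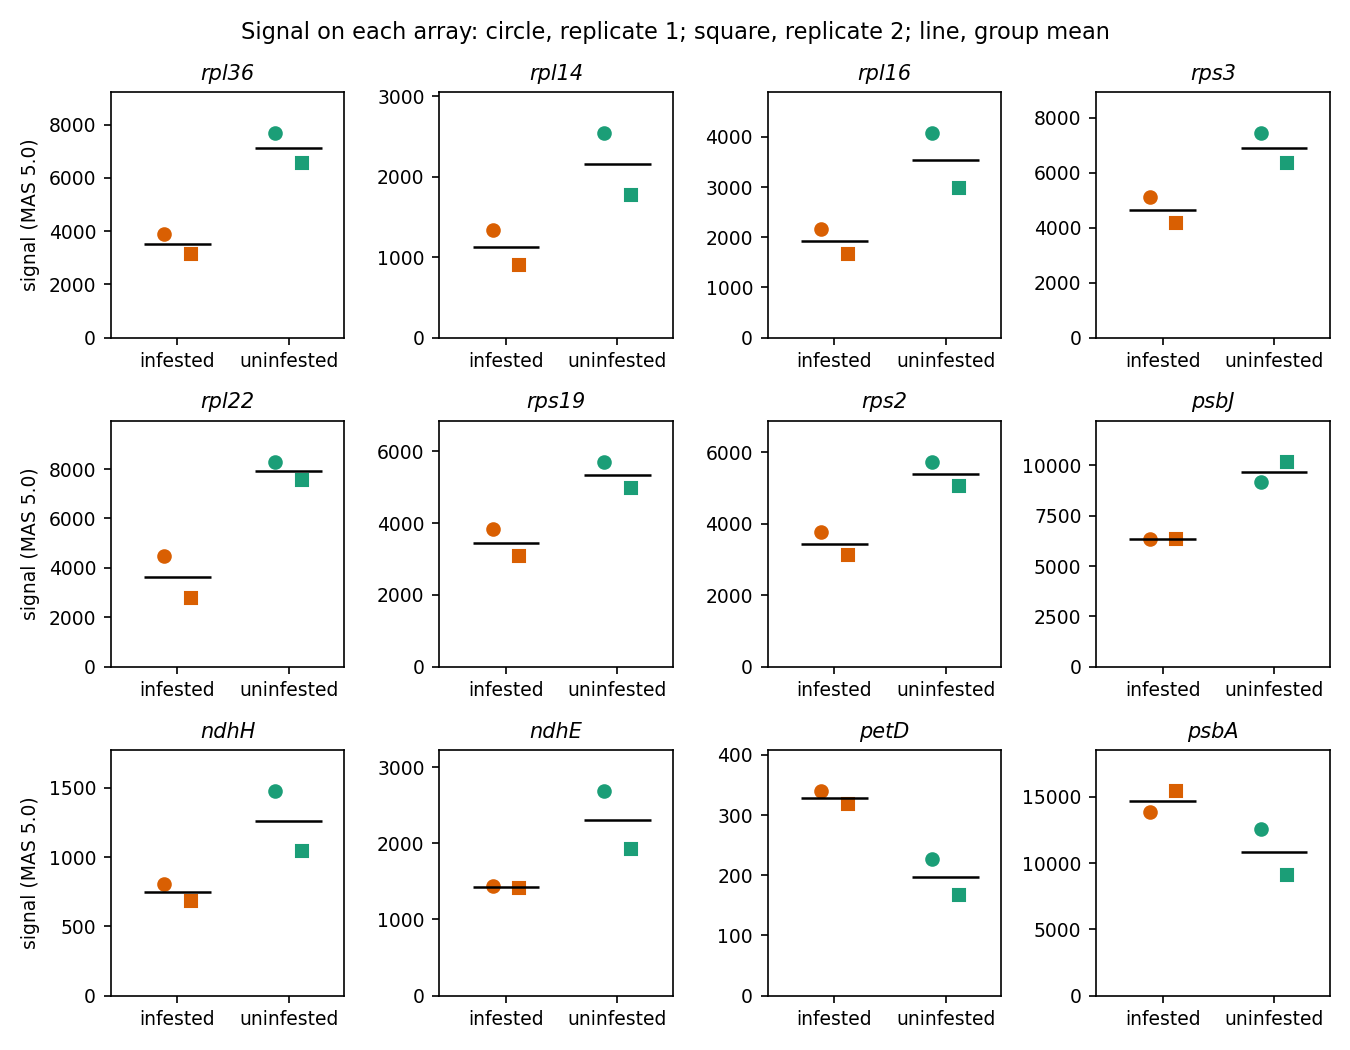
Signal on each array for 12 plastid genes, infested on the left of each panel and uninfested on the right. Circles are replicate 1, squares replicate 2 and the line is the group mean. For rpl36 the infested arrays read 3877 and 3144, both below the uninfested arrays at 7683 and 6568, while for petD and psbA both infested arrays read higher.

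The RNA polymerase that transcribes most photosynthesis genes of the plastid is built from the 4 rpo genes. Their log2 changes lay between -0.45 and -0.14 with a median of -0.37, and the median stayed at -0.32 with quantile normalization. For rpoC2 the signal was 820.0 and 695 on the infested arrays, against 1354 and 791 on the uninfested arrays, a log2 change of -0.45 (adjusted p = 0.352). The groups overlapped, because uninfested array 2 lay between the infested arrays. For rpoA, the brightest, it was 4812 and 4789.8 on the infested arrays, against 6645 and 5297 on the uninfested arrays (adjusted p = 0.281). For rpoC1 it was 2371 and 2209 on the infested arrays, against 3042 and 2107 on the uninfested arrays, a log2 change of -0.14. The dim rpoB had a log2 change of -0.43. In 3 of the 4 genes the groups overlapped, and the class median was -0.50 in replicate pair 1 and -0.16 in pair 2, so that the size rests largely on uninfested array 1. Without that array the median was -0.06.

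The NDH complex passes electrons back to the plastoquinone pool around photosystem I. The median log2 change of its 10 genes was -0.24, or -0.19 with quantile normalization, with a range of -0.73 to 0.31, and none passed the unblocked test, though 2 were at an unadjusted p under 0.05. The signal of ndhH, the largest difference, was 805 and 687 on the infested arrays, against 1479 and 1043 on the uninfested arrays, a log2 change of -0.73 (adjusted p = 0.113 without and 0.0244 with the block). That of ndhE was 1434 and 1418 on the infested arrays, against 2686 and 1929 on the uninfested arrays, a log2 change of -0.67 (0.113 without and 0.0362 with the block). In both genes the groups were apart and the difference was larger in replicate pair 1. Other NDH genes had log2 changes of -0.45 (ndhG), -0.36 (ndhA), -0.26 (ndhF, not tested), -0.22 (ndhC), -0.15 (ndhJ) and 0.06 (ndhD). The brightest, ndhI, read 12900.4 and 12823 on the infested arrays, against 14053 and 14207 on the uninfested arrays, a log2 change of -0.14. The highest was ndhK, with 2059 and 2340.3 on the infested arrays, against 2218 and 1414 on the uninfested arrays. Its log2 change was 0.31 (adjusted p = 0.460), with -0.11 in replicate pair 1 and 0.72 in pair 2.

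Photosystem II splits water and holds the largest number of plastid-encoded subunits. Its 15 genes had a median log2 change of -0.03, which was 0.11 with quantile normalization. The infested arrays were the lower ones for 5 genes, or 33.3%, and the higher ones for 1, beside 28.1% and 33.8% of all tested probe sets. For psbJ, a small subunit, the signal was 6326 and 6333 on the infested arrays, against 9202 and 10174 on the uninfested arrays, so that the infested arrays were nearly equal and both well below. The log2 change was -0.61 (SE 0.131, adjusted p = 0.0565, with the block 0.0251). Its operon partners psbE and psbF, the subunits of cytochrome b559, and psbL had log2 changes of -0.18, -0.01 and -0.14. Psb genes with values near 0 included those of the reaction centre protein D2 (psbD, 0.04) and of the inner antennae CP47 (psbB, 0.12) and CP43 (psbC, 0.03). The other small subunits were at -0.18 (psbH), -0.15 (psbZ), -0.07 (psbI), -0.04 (psbK) and 0.01 (psbT), and psbN, which serves assembly of the complex, was at 0.12. The brightest of the class, psbM, had 20066 and 18489 on the infested arrays, against 18404 and 21145 on the uninfested arrays, a log2 change of -0.03.

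The psbA gene encodes D1, the reaction centre protein that is replaced continually as light damages it. Its signal was 13856 and 15444 on the infested arrays, against 12579.7 and 9115 on the uninfested arrays, with no overlap. The log2 change was 0.45 with a 95% interval of -0.01 to 0.91 (adjusted p = 0.186 without and 0.120 with the block), 0.14 in replicate pair 1 and 0.76 in pair 2. The large subunit of Rubisco, rbcL, the enzyme that fixes carbon dioxide, had 2061 and 3153 on the infested arrays, against 1859 and 1761 on the uninfested arrays. Its log2 change was 0.49 with an interval of -0.09 to 1.08 (adjusted p = 0.236 without and 0.127 with the block), 0.15 in pair 1 and 0.83 in pair 2. Neither gene passed a test, and in both the difference lay mainly in the replicate 2 arrays.

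The 5 photosystem I genes had a median log2 change of -0.05, which was 0.06 with quantile normalization, and in all 5 the groups overlapped. The reaction centre gene psaA had 9268 and 7374 on the infested arrays, against 10935 and 8657 on the uninfested arrays, a log2 change of -0.23 (adjusted p = 0.447). Its partner psaB, the brightest, had 17926 and 16139 on the infested arrays, against 18464 and 17178 on the uninfested arrays, a log2 change of -0.07 with a 95% interval of -0.36 to 0.23. For psaC, which carries the terminal iron-sulphur clusters, the signal was 3204 and 3607 on the infested arrays, against 3705 and 2542 on the uninfested arrays, a log2 change of 0.15 (adjusted p = 0.697). The small subunits psaI and psaJ were at -0.05 and -0.04. Limma called 0 of the 5 genes, and 0 had an unadjusted p under 0.05.

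The ATP synthase genes likewise had overlapping groups in 5 of 6 cases, with a median log2 change of -0.13, or 0.05 with quantile normalization. The beta subunit gene atpB had 20307 and 19670.2 on the infested arrays, against 20768 and 20120.1 on the uninfested arrays, and its log2 change of -0.03 had a 95% interval of -0.29 to 0.23. The epsilon subunit gene atpE had 17386 and 15930.5 on the infested arrays, against 17690.3 and 15614 on the uninfested arrays, a log2 change of 0.00. The widest difference was that of atpI, for a subunit of the membrane part, with 361 and 327.5 on the infested arrays, against 561 and 345 on the uninfested arrays. That log2 change, -0.34 (adjusted p = 0.424), lay mainly in the replicate 1 arrays, as the pairs gave -0.62 and -0.07. The log2 change was -0.17 for atpF, -0.15 for atpA and -0.12 for atpH.

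In the cytochrome b6f complex, which links the photosystems, petD had the highest value of all plastid genes. The gene encodes subunit IV, and its signal was 340.0 and 317.5 on the infested arrays, against 226 and 167 on the uninfested arrays, 1.64-fold higher. The log2 change was 0.71 (SE 0.205, adjusted p = 0.101), and petD rose in the blocked fit (0.0473) with 0.55 and 0.86 in the pairs. For petB, cytochrome b6, which lies next to petD in the same operon and is the brightest of the class, the signal was 16384 and 15463 on the infested arrays, against 16897 and 17179.7 on the uninfested arrays. Its log2 change was -0.10, with an interval of -0.37 to 0.18. For petA, cytochrome f, the signal was 9736 and 9925 on the infested arrays, against 11932 and 12244 on the uninfested arrays, a log2 change of -0.30 (adjusted p = 0.174). The small subunit genes petG, petL and petN were at -0.21, -0.09 and 0.15. The class median was -0.10, or 0.00 with quantile normalization, and 0.19 without uninfested array 1.

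**Figure D4:**
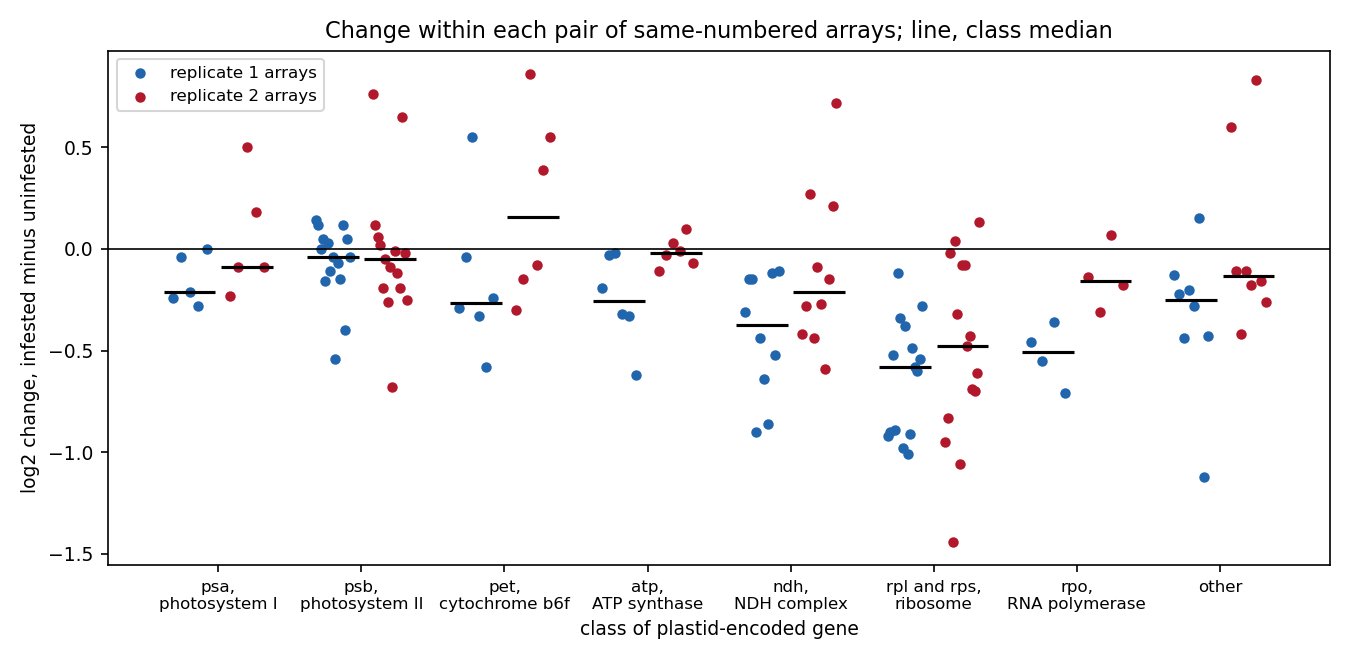
Log2 difference between the infested and uninfested arrays of replicate 1 (blue) and of replicate 2 (red) for each plastid gene, by class. Lines mark the class medians, and the 2 points of a gene are not linked. By the values of single genes, 13 of the 15 ribosomal protein genes were below 0 in both pairs. Over all 69 genes 45 were below 0 in both and 5 above 0 in both.

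The 8 remaining genes had a median log2 change of -0.20, or -0.06 with quantile normalization, and limma called 0 of them, with 1 at an unadjusted p under 0.05. That gene was cemA, for an envelope membrane protein, with a log2 change of -0.43 (adjusted p = 0.103 without and 0.0749 with the block). Its signal was 8675 and 8177 on the infested arrays, against 11800.1 and 10943 on the uninfested arrays. The lowest value was that of ycf3, an assembly factor of photosystem I, with 299 and 327 on the infested arrays, against 667 and 368 on the uninfested arrays. Its log2 change of -0.64 (adjusted p = 0.223) was -1.12 in replicate pair 1 and -0.16 in pair 2. Another assembly factor of photosystem I, ycf4, was at -0.35, and the intron maturase gene matK at -0.23. The values were -0.16 for clpP, a subunit of the Clp protease, and 0.23 for accD, a subunit of acetyl-CoA carboxylase. The brightest, ccsA, which serves attachment of haem to c-type cytochromes, had 11248 and 11818 on the infested arrays, against 13106 and 12739 on the uninfested arrays, a log2 change of -0.16.

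Nuclear genes whose products join the plastid-encoded ones in the same complexes had a lower median than the plastid genes, a difference that was not tested. Of 118 loci on 11 lists, 18 were matched to a probe set by the annotation used here, called measured below, and 17 were tested. The annotation gave no gene for 8730 probe sets, so a locus without a match may still be on the array. All 17 had a log2 change below 0, with a median of -0.93 (-0.78 with quantile normalization). That median depends on which loci were measured, as 6 were for ribosomal proteins (median -1.43) and 3 for NDH subunits (-1.58). The other list medians were -0.71 for photosystem II, -0.61 for the ATP synthase, -0.43 for cytochrome b6f, -0.40 for photosystem I and -0.32 for the Clp protease. Limma called 8 lower and 0 higher, beside 2.54% and 2.83% of all probe sets, and 16 were lower at an unadjusted p under 0.05, beside 13.6% of all. The blocked fit called 12 lower, beside 10.3% of all. With quantile normalization 3 were called, beside 2.64% of all probe sets called lower under it, so the count depends on the scaling.

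All 6 measured loci of the 32 listed for plastid ribosomal proteins fell, with log2 changes between -1.60 and -0.93. The signals of AT5G65220 were 3662 and 3033 on the infested arrays, against 7855 and 7164 on the uninfested arrays, a log2 change of -1.17 (adjusted p = 0.0346). Those of AT3G54210 were 3298 and 2169.8 on the infested arrays, against 7104 and 6470.0 on the uninfested arrays, a log2 change of -1.34 (0.0414). In both loci every infested value was far below every uninfested one. AT3G13120 had 3141 and 1785 on the infested arrays, against 7385 and 7019 on the uninfested arrays, a log2 change of -1.60 (0.0420). AT1G64510 had 2638.5 and 1519 on the infested arrays, against 6127 and 5898 on the uninfested arrays, a log2 change of -1.58 (0.0420). The median of the 6 loci was -1.43, beside -0.57 for the 15 plastid-encoded ribosomal genes. With quantile normalization AT5G65220 alone was still called, although the median was -1.36.

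Of the nuclear NDH subunits 3 of 9 were measured and 2 were called. NdhN had 1045 and 645 on the infested arrays, against 3063 and 3068 on the uninfested arrays, and it fell by 1.88 on the log2 scale (adjusted p = 0.0342). NdhL had 1273 and 1047 on the infested arrays, against 3451 and 3498 on the uninfested arrays, and fell by 1.58 (0.0297). NdhS had 3079 and 2585 on the infested arrays, against 4718 and 4269.7 on the uninfested arrays, a log2 change of -0.67 (0.0754 without and 0.0217 with the block). In none of these genes did the groups overlap, and NdhN and NdhL had larger differences than any plastid-encoded ndh gene, though the gap was not tested.

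The other lists held 1 or 2 measured genes each. For photosystem II, PSBY had 12953.5 and 8951 on the infested arrays, against 20259 and 21917 on the uninfested arrays, a log2 change of -0.97 (adjusted p = 0.0522 without and 0.00896 with the block). PSBW had 13206 and 11114 on the infested arrays, against 15230.5 and 17933 on the uninfested arrays, a log2 change of -0.45 (0.131). Both thus had separate groups, and only PSBY passed a test, with the block. For photosystem I, PSAN had 12393 and 11770.5 on the infested arrays, against 16332 and 16614 on the uninfested arrays, a log2 change of -0.45 (0.0803). PSAE1 had 15935 and 13049 on the infested arrays, against 18888 and 17860.4 on the uninfested arrays, a log2 change of -0.35 (0.179). ATPC1 is the gamma subunit of the ATP synthase. It had 13157 and 10319.7 on the infested arrays, against 17530.6 and 18035 on the uninfested arrays, a log2 change of -0.61 (0.0776 without and 0.0305 with the block). The only measured locus of the cytochrome b6f list, AT2G26500, had 12799.9 and 12427 on the infested arrays, against 16831 and 17079.6 on the uninfested arrays, a log2 change of -0.43 (0.0841). Groups were again separate in these 4 genes. With quantile normalization the log2 change was nearer 0 for PSAN (-0.17), PSAE1 (-0.08), AT2G26500 (-0.12) and PSBW (-0.20). It was -0.78 for PSBY and -0.40 for ATPC1. Of the Clp protease list, CLPP4 had 2527 and 1992 on the infested arrays, against 3655 and 3319 on the uninfested arrays, a log2 change of -0.63 (0.100 without and 0.0298 with the block). AT1G09130 had 2621 and 1831 on the infested arrays, against 2089 and 2333 on the uninfested arrays, with overlapping groups and a log2 change of -0.01 (0.980). On the list of RNA polymerases and sigma factors the only measured locus, AT5G15700, was too dim to test, at 87.0 and 94.3 on the infested arrays, against 27.7 and 40.1 on the uninfested arrays. For the lists of the Rubisco small subunit, of proteins associated with the plastid polymerase and of plastid RNA processing, the annotation matched no locus to a probe set.

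Markers of cell types and of leaf ageing were measured in part. RCA, Rubisco activase, was the only measured mesophyll marker of 4, and it had 19115 and 17614 on the infested arrays, against 19523 and 21392 on the uninfested arrays, a log2 change of -0.16 (adjusted p = 0.427). Guard cell markers, 2 of 5, summed to 1194 and 1018 on the infested arrays, against 2094 and 1995 on the uninfested arrays. Most of that sum was AT1G22690, with 937.6 and 854.2 on the infested arrays, against 1840.7 and 1711.1 on the uninfested arrays. It fell by 0.98 on the log2 scale (adjusted p = 0.0411). FMA had 256.1 and 163.9 on the infested arrays, against 253.4 and 283.5 on the uninfested arrays. Its groups overlapped, with a log2 change of -0.36 (adjusted p = 0.386). Leaf senescence markers, 2 of 5, summed to 1247 and 2524 on the infested arrays, against 523 and 762 on the uninfested arrays. WRKY6 rose by 1.39 (adjusted p = 0.0460), and WRKY53 was at 1.45 (0.0919 without and 0.00243 with the block). The 95% intervals of RCA (-0.45 to 0.14) and FMA (-0.97 to 0.25) included 0, and with quantile normalization RCA was at 0.06. No marker of phloem, xylem, epidermis, dividing cells or roots was matched to a probe set by the annotation, which does not mean that the array lacks one. The part of these shifts in the plastid values was not tested.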

How the data were processed

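RNA of 4 leaf pools was hybridised to 1-colour Affymetrix ATH1 arrays. The deposited values are linear signal intensities that the authors computed with MAS 5.0, per the labels, and scaled to 1 trimmed mean. The version, a genome build and detection calls are not given in the sources used here. MAS 5.0 subtracts mismatch signal, so dim values are noisy.

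The table held 22810 probe sets, including 64 controls that were dropped. The analysis used log2(signal + 16), and probe sets with a mean below the 40th percentile were left out, so that 13648 were tested and 9098 were not. Fold changes on this scale understate those of dim genes. The whole table was fitted in R 4.3.3 by limma 3.58.1, using lmFit and trended eBayes with 2 residual and 3.66 prior degrees of freedom. A call means a p under 0.05 after Benjamini-Hochberg adjustment over all tested probe sets. The fit was tested on simulated data. An exact permutation test of 2 arrays against 2 cannot go below p = 0.333.

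Genes were named through the platform annotation, updated by gene number to RefSeq (TAIR10.1): 13513 probe sets had 1 gene, 503 several and 8730 none, and 13436 matched RefSeq. Each plastid gene had 1 such probe set. No sequence was used, and no coordinates are given.

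Array numbers were taken to mark shared experiments, a choice made with both counts of calls known. The series text describes pools of the same experiments and the titles give only a replicate number, so the sources do not establish this reading. If every pool holds the same experiments, the number marks no block. The 2 arrays sharing a number deviated from their groups' means with r = 0.264 across probe sets, which are not independent. The blocked fit had 1 residual and 7.26 prior degrees of freedom.

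The plastid genes, the gene lists and the tests were chosen with earlier results of these data known. Every plastid gene is named. Values by array are given for the brightest gene, the largest rise and the largest fall of each class, for called genes, and for the 4 tested genes of each nuclear list with the smallest p. Values by array of other genes, such as those called with the block, and the run from rpl36 to rps19 were added after the values were seen. Alternatives were pseudocounts of 1 and 64, median scaling, quantile normalization, no filter, a filter at the 60th percentile, the block, and leaving out each array.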

Additional observations from a re-analysis of the deposited data

How the results depend on the processing

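With 2 arrays a group the counts of calls moved much more than the medians. Neither pseudocount (1 or 64) nor the stricter filter (60th percentile) took a count beyond 1.5 times of the reported one, in either direction. Over the whole table, 386 probe sets were higher and 347 lower in infested leaves. There were 592 lower with median scaling, 1254 higher and 1403 lower with the replicate block, and 0 either way with no filter, where limma had 2453 higher and 2203 lower at an unadjusted p under 0.05. Leaving out 1 array gave 0 to 2087 higher and 0 to 2553 lower. Both zeros came without uninfested array 1, with 854 higher and 786 lower at an unadjusted p under 0.05, and without uninfested array 2, with 1005 and 922.

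Among plastid genes, 1 was lower and 0 higher. The count lower was 2 with median scaling, 0 with quantile normalization (13 at an unadjusted p under 0.05), 0 with no filter (13) and 11 with the block, and the block called 1 higher. Leaving out 1 array gave 0 to 12 lower and 0 to 1 higher. The 12 came without infested array 1, and the zeros without uninfested array 1 (3 at an unadjusted p) or uninfested array 2 (13). Of the nuclear list genes 8 were lower. There were 3 with quantile normalization, 0 with no filter (14 at an unadjusted p) and 0 to 16 on leaving out 1 array, with the zeros without either uninfested array (11 at an unadjusted p in each). The causes were not tested, except that a fit without 1 array has 1 residual degree of freedom and takes the lone array to vary like the other group.

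Class medians moved beyond the replicate spread in few settings. With quantile normalization the psb median was 0.11 and that of the other genes -0.06. Without uninfested array 1 it was that of pet, at 0.19. Without uninfested array 2 those of ndh, at -0.37, and of rpl and rps, at -0.73, moved so. Without infested array 2 that of the nuclear list genes did, at -0.70. On leaving out 1 array, the median ranged between -0.27 and -0.07 for all plastid genes, -0.64 and -0.06 for rpo, -0.32 and 0.03 for atp, -0.14 and 0.02 for psb, -0.12 and 0.00 for psa, -0.25 and -0.15 for the other genes, -0.23 and 0.19 for pet, -0.37 and -0.21 for ndh, -0.73 and -0.45 for rpl and rps, and -1.11 and -0.70 for the nuclear list genes. The log2 change of AT1G09130, -0.01, lay between -0.27 and 0.25, with 0.25 without infested array 2 and 0.07 without uninfested array 2. Of the 69 plastid genes 36, and of the 15 ribosomal genes 13, kept their sign in all 11 settings. Taking the dimmest or the mean of a gene's probe sets could give no other value, as each plastid gene had 1.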

Other observations

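Plastid genes that lie in the inverted repeat, or are split between distant parts of the genome, have probe sets that match more than 1 gene entry and were left out above. There are 8 such probe sets, of which 7 were tested, and limma called 0 of them, with 2 at an unadjusted p under 0.05. The probe set for ycf1, a large protein of the chloroplast inner envelope, had 1854 and 1383 on the infested arrays, against 3303 and 2091 on the uninfested arrays, a log2 change of -0.71 (adjusted p = 0.169 without and 0.0217 with the block). For rpl23 the signal was 7842 and 6589 on the infested arrays, against 10331 and 10458 on the uninfested arrays, a log2 change of -0.53 (0.0895 without and 0.0459 with the block). The next gene of the same operon, rpl2, which lies between rpl23 and rps19, had 14545 and 14031 on the infested arrays, against 14971 and 15901 on the uninfested arrays, a log2 change of -0.11. The other values were -0.33 for ndhB, -0.14 for rps7, and 0.22 and -0.04 for the 2 probe sets of rps12. The ycf2 probe set was too dim to test.

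Genes of the mitochondrial genome lay the other way. Of 11 with a probe set 7 were tested, and all 7 were higher on both infested arrays, beside 33.8% of all tested probe sets, with a median log2 change of 0.75 and a range of 0.22 to 0.92, beside -0.16 for the plastid genes. Limma called 0 of them (adjusted p between 0.0747 and 0.460, and 6 at an unadjusted p under 0.05, beside 14.1% of all probe sets higher), and the blocked fit called 6 higher, beside 9.19% of all. Of the mitochondrial genes too dim to test, matR and nad6 were also higher on both infested arrays. The groups overlapped for nad2 and nad7, with log2 changes of 0.17 and 0.02. The difference between the genomes was not tested.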
